A study of Homo sapiens with 8 samples.

Results

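The 10 genes described here curb signalling through the kinase ERK or report on it: the phosphatases DUSP1, DUSP4, DUSP5 and DUSP6, the Sprouty genes SPRY1, SPRY2 and SPRY4, the Sprouty-related genes SPRED1 and SPRED2, and the transcription factor ETV5. These genes and the other gene lists below were chosen by name, with earlier results of these data known. Counts among them, set against all genes, are thus descriptions and not independent support. The 25 probe sets of the 10 genes, out of 54675 on the array, are those that the platform annotation pairs with 1 of these symbols alone. Each gene was represented by its brightest probe set, and 8 of the 10 genes were bright enough to be tested, among 13298 genes tested in all. DUSP4 and DUSP5 were too dim.

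The cells were HepG2, a line from a human hepatocellular carcinoma. The series compared HepG2 cultures given 3 µM quercetin, a plant flavonol, in medium without serum with control cultures in the same medium and no quercetin, each sampled at 2, 4, 12 and 24 h. All cultures, controls included, had been starved of serum beforehand, and the labels differ on how long, so that no length is given here. There was 1 array for each treatment at each time, 8 in all, so no 2 cultures treated the same way can be compared. A p-value rests on how a difference varied across times and treatments, moderated by that spread over all tested genes. In bulk RNA, fewer cells of a type and less RNA per cell cannot be told apart.

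ERK is the last kinase of a cascade that carries growth factor signals from receptor tyrosine kinases through RAS, RAF and MEK. Active ERK switches on genes whose products damp the same cascade. Dual-specificity phosphatases remove the phosphates that make ERK and related kinases active, Sprouty proteins restrain the steps between receptor and RAF, and SPRED proteins recruit neurofibromin, which returns RAS to its inactive state. ETV5 is an ETS-family transcription factor whose transcription is itself raised by ERK signalling. The messenger RNAs of these feedback genes are therefore widely used as readouts of the pathway, although serum, stress and other kinases also act on several of them.

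The line matched its label on these arrays. The 12 hepatocyte markers analysed, among them ALB and AFP, all passed the filter on dim genes, and their mean level lay between 14.11 and 14.29 on the quercetin arrays and between 14.02 and 14.31 on the control arrays (log2 scale). Of the markers of other cell types, 3 of 5 for leukocytes, 5 of 7 for fibroblasts and 2 of 6 for endothelium passed the filter. PTPRC and CD3E of leukocytes, COL1A1, COL1A2, DCN, PDGFRB and THY1 of fibroblasts and PECAM1 and TEK of endothelium passed, with levels between 6.93 and 9.91. CD14, TYROBP, COL3A1, LUM, CDH5, KDR, VWF and CLDN5 did not pass. LYZ, listed as a leukocyte marker, lay between 13.40 and 14.22 on all 8 arrays. Array medians ran from 7.36 to 7.48 and the SD within an array from 1.74 to 1.95, with the widest values at 24 h (1.90 for quercetin and 1.95 for control).

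The feedback genes differed between times in both treatments, and no difference between quercetin and control was detected. All 8 tested genes rose at 24 h against 2 h, with differences of 0.65 to 2.48 on the log2 scale, and on all 8 both 24 h arrays lay above the other 6. SPRED1 passed the filter on dim genes only through its 24 h arrays, and without it 7 of 7 rose. At 4 h or 12 h against 2 h no member passed the test. The same count over all tested genes is high as well: 17.3% were called higher at 24 h against 2 h, and in 29.6% both 24 h arrays lay above the other 6. The median difference at 24 h against 2 h was 0.87 over the 8 members (without SPRED1 it is the value of SPRY2, 0.84) and 0.09 over all 13298 tested genes (log2). A gene is said to be called when limma's adjusted p, over all 13298 genes, was below 0.05.

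**Figure D1:**
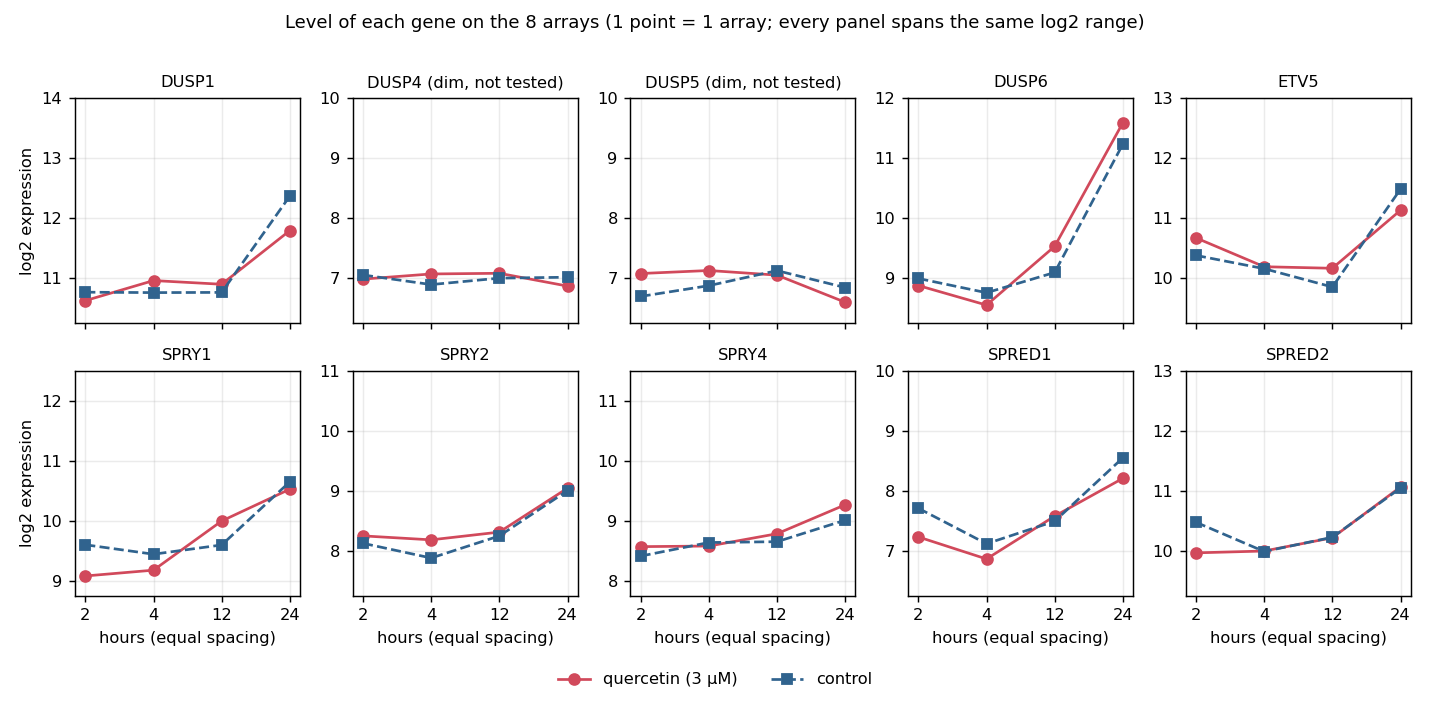
Log2 expression of each gene (y axis, every panel spanning the same log2 range) on the 8 arrays by hours (x axis, equally spaced), with 1 point per array, red circles for quercetin and blue squares for control. In the 8 tested genes the 24 h pair lies above the earlier arrays of both treatments, while DUSP4 and DUSP5 stay near 7.

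All 8 tested members had their highest RNA levels on the same 2 arrays, and the promoters of 4 of them are shown as examples. They set side by side the motifs of kinase-responsive factors near the starts. Each is the 250 bases before a start, from RefSeq on GRCh38.p14 and read 5′ to 3′ on the minus strand, where all 4 genes lie. For DUSP6, DUSP1 and SPRY2 that start is the first base of the gene, whereas for SPRY4, which spans chr5:142310430-142325021, it lies inside the gene. They are DUSP6 at chr12:89352502-89352751, DUSP1 at chr5:172771196-172771445, SPRY2 at chr13:80341127-80341376 and SPRY4 at chr5:142324248-142324497. Capitals mark matches to the motifs searched.
DUSP6: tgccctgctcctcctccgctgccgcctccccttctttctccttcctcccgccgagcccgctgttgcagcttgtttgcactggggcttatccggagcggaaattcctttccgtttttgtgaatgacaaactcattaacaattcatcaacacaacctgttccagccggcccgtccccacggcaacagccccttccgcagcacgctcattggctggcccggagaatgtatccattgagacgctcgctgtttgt
DUSP1: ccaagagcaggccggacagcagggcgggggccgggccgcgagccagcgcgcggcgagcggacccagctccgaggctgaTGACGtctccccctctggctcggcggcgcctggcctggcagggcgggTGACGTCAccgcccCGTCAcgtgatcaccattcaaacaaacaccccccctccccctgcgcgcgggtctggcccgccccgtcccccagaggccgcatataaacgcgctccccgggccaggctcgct
SPRY2: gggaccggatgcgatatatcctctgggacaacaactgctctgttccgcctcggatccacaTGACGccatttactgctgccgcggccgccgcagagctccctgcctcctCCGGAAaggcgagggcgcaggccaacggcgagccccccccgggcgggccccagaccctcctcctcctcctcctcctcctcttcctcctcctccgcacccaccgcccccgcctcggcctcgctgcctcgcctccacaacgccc
SPRY4: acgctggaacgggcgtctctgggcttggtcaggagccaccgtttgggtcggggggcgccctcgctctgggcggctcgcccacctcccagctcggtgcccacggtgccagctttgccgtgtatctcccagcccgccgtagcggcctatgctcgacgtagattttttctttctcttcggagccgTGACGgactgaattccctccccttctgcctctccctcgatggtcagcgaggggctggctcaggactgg

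Windows from 250 bases before to 50 bases after a start were on hand for 7 of the 10 genes, 11 windows in all (none for DUSP4, DUSP5 and ETV5), and 35116 windows of this length served for comparison. Both strands were searched for 5 motifs of factors known to act downstream of ERK or of other kinases. The CRE, TGACGTCA, bound by CREB-family factors, occurred in 1.85% of all windows and among the members in DUSP1 alone, beginning 125 bases before the start. Its half-site, TGACG, occurred in 24.6% of all windows and in DUSP1, SPRY2, SPRY4 and SPRED2, and 2 of the 4 half-sites in DUSP1 lie within the CRE. The ETS motif was searched as CCGGAA, so that GGAA with other bases before it was not counted. In this form it occurred in 17.2% of all windows and in SPRY1 and SPRY2. The AP-1 motif, TGANTCA, occurred in 7.71% of all windows and in a second start of SPRED2. The CArG box, bound by serum response factor, occurred in 1.29% of all windows and in no member. The DUSP6 window held none of the 5 motifs as searched, although GGAA occurs in its printed stretch.

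DUSP6, a cytoplasmic phosphatase that acts mainly on ERK, showed the largest difference of the 8. The gene lies at chr12:89347235-89352501 on GRCh38.p14. Its log2 level was 8.88, 8.55, 9.53 and 11.59 on the quercetin arrays at 2, 4, 12 and 24 h, and 8.99, 8.76, 9.09 and 11.23 on the control arrays at those times. The arrays at 2, 4 and 12 h thus lay within 1 log2 unit of each other, and both 24 h arrays stood far above them. The difference of 24 h against 2 h was 2.48 ± 0.19 (SE; 95% interval 2.07 to 2.88), a 5.57-fold rise, with a limma adjusted p of 3.6e-08. Against 12 h it was 2.10, or 4.29-fold (adjusted p = 3.7e-07). DUSP6 was also the 1 member called at 12 h against 4 h, with a difference of 0.66 ± 0.19 (adjusted p = 0.041), where 6.56% of all genes were called higher. That call was lost with no filter, with an added term for the array class set by hybridisation spike-in signal, and under 6 other settings, and also without either 4 h array, without the quercetin 12 h array and without either 24 h array.

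DUSP1 encodes a nuclear phosphatase of p38, JNK and ERK and is an immediate-early gene, one whose transcription needs no new protein. It lies at chr5:172768096-172771195. Its log2 level was 10.62, 10.96, 10.90 and 11.79 with quercetin at 2, 4, 12 and 24 h, against 10.77, 10.76, 10.76 and 12.37 in controls. The 3 earlier control arrays were within 0.01 of each other, and the 24 h control array was the highest of all 8. The difference of 24 h against 2 h was 1.39 ± 0.17 (SE; adjusted p = 1.2e-05), a 2.61-fold rise, and that of 24 h against 12 h was 1.25 (adjusted p = 4.5e-05).

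DUSP4, another nuclear phosphatase of these kinases, and DUSP5, a nuclear phosphatase specific to ERK, were not tested, because the means of their brightest probe sets, 6.99 and 6.92, lay below the filter at 7.43. The log2 level of DUSP4 was 6.98, 7.07, 7.08 and 6.87 with quercetin at 2, 4, 12 and 24 h, and 7.05, 6.89, 7.0 and 7.01 in controls. The log2 level of DUSP5 was 7.08, 7.13, 7.05 and 6.60 with quercetin at those times, and 6.69, 6.87, 7.13 and 6.84 in controls. Neither gene shared the high 24 h arrays, and a signal this dim says little about the RNA. With no filter both were tested, and neither was called at 24 h against 2 h.

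SPRY1, at chr4:123396795-123403760, was the Sprouty gene with the largest difference at 24 h against 2 h by its brightest probe set, although with the mean of its probe sets the difference was 0.71, below that of SPRY2. Its log2 level was 9.08, 9.18, 9.995 and 10.53 with quercetin at 2, 4, 12 and 24 h, against 9.60, 9.44, 9.60 and 10.65 in controls. The quercetin array at 12 h stood above all the earlier arrays of both treatments, and both 24 h arrays stood above it. The difference of 24 h against 2 h was 1.25 ± 0.20 (SE; adjusted p = 0.00016), a 2.38-fold rise, and that of 24 h against 12 h was 0.79 (adjusted p = 0.0069). The call against 12 h was lost with the mean of probe sets, with quantile normalization, without the control 12 h array and without either 24 h array. At 12 h against 2 h the difference was 0.46 and did not pass the test (adjusted p = 0.24).

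SPRY2 and SPRY4 each had 1 probe set. SPRY2 read 8.25, 8.18, 8.31 and 9.04 on the log2 scale with quercetin at 2, 4, 12 and 24 h, and 8.12, 7.88, 8.25 and 9.002 in controls. Its 24 h arrays were close to each other and stood above all 6 earlier arrays, and the difference of 24 h against 2 h was 0.84 ± 0.19 (SE; adjusted p = 0.0031), or 1.79-fold. SPRY2 also rose at 24 h against 12 h, by 0.74 (adjusted p = 0.0071), a call lost without either 12 h array, without the control 24 h array and with the spike-in class as a block. SPRY4 read 8.57, 8.58, 8.78 and 9.27 with quercetin at those times, and 8.41, 8.64, 8.65 and 9.01 in controls. It had the smallest difference of 24 h against 2 h, 0.65 ± 0.19 (SE; adjusted p = 0.017), or 1.57-fold, and that of 24 h against 12 h, 0.42, did not pass (adjusted p = 0.11). The SPRY4 call was lost without either 2 h array, without either 24 h array, with quantile normalization (0.54) and with the spike-in class as a block (0.62).

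The SPRED genes encode membrane proteins that carry a Sprouty-type domain. SPRED1 read 7.23, 6.86, 7.58 and 8.21 on the log2 scale with quercetin at 2, 4, 12 and 24 h, and 7.71, 7.12, 7.49 and 8.55 in controls. Its mean of 7.59 passed the filter through its 24 h arrays, since on the 6 earlier arrays alone it would have been too dim, so its call at 24 h against 2 h, 0.91 ± 0.19 (SE; 1.88-fold, adjusted p = 0.0020), does not stand as support. SPRED2 read 9.96, 9.99, 10.22 and 11.06 with quercetin, and 10.47, 9.99, 10.22 and 11.05 in controls. The treatments were within 0.02 of each other at 4, 12 and 24 h, and the difference of 24 h against 2 h was 0.83 ± 0.17 (SE; 1.78-fold, adjusted p = 0.0017). Set against 12 h, the 24 h levels of SPRED1 differed by 0.84 (adjusted p = 0.0035) and those of SPRED2 by 0.83 (adjusted p = 0.0017). The SPRED1 value draws on the same 24 h arrays and does not stand as support either. The SPRED1 call against 12 h was lost without the control 12 h array, without the control 24 h array and with the spike-in class as a block, and that of SPRED2 with the mean of probe sets. Both SPRED calls at 24 h against 2 h were lost without the quercetin 2 h array.

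ETV5, at chr3:186046314-186109089, followed another course before 24 h. Its log2 level was 10.67, 10.19, 10.16 and 11.13 with quercetin at 2, 4, 12 and 24 h, against 10.38, 10.16, 9.85 and 11.48 in controls. In each treatment the 12 h array was the lowest and the 24 h array the highest. At 12 h against 2 h the difference was -0.52 ± 0.18 (SE) and did not pass (adjusted p = 0.12). At 24 h against 12 h it was 1.30 ± 0.18 (SE; adjusted p = 4.1e-05), a 2.46-fold rise, and at 24 h against 2 h it was 0.78 ± 0.18 (adjusted p = 0.0032), a 1.72-fold rise. The call at 24 h against 2 h was lost without the control 24 h array, as was that of SPRY2.

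Counted over the comparisons of times, 0 of the 8 members were called at 4 h against 2 h, where 0.534% of all genes were called (1 member had an unadjusted p under 0.05), and 0 at 12 h against 2 h, where 3% were called (2 members with an unadjusted p under 0.05). At 24 h against 2 h 8 were called higher and 0 lower, against 17.3% and 3.98% of all genes. At 24 h against 12 h 7 were called higher, SPRED1 among them, against 19% of all genes. The median difference was 0.84 over the members (without SPRED1 it is the value of SPRED2, 0.83) and 0.16 over all genes (log2). In the test for any difference between times 8 of the 8 were called, against 38.1% of all genes. Without the quercetin 2 h array or without the control 24 h array 5 of the 8 remained called at 24 h against 2 h, in each case with DUSP6, DUSP1 and SPRY1 among them. Of all genes 7.16% and 7.95% were called in those fits, in either direction. With the filter set on the 6 arrays before 24 h, an alternative added after the data were seen, 7 members were tested and all 7 were called higher at 24 h against 2 h (SPRED1 was too dim to be tested), against 21.3% of all genes called in either direction. In that fit 6 of the 7 were called at 24 h against 12 h, against 23.7% of all genes in either direction. For any difference between times 7 of the 7 were called, against 38% of all genes.

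Several measures of the arrays themselves differed between times. The mean hybridisation spike-in signal, from transcripts added at hybridisation, was 11.83 at 24 h with quercetin and 12.01 at 24 h in controls, against 12.11 with quercetin and 11.24 in controls at 2 h, and 11.35 with quercetin and 11.19 in controls at 12 h, so that the 12 h pair and the control 2 h array were dim. With the array class set by that signal as an added term, 7 of the 8 members were called at 24 h against 2 h, all but SPRY4. At 24 h against 12 h 4 of the 8 were called, DUSP1, DUSP6, SPRY1 and SPRED2. Only the 2 h pair was split between the classes, so that pair alone set the added term. At 24 h against 2 h the fit thus amounts to leaving out the control 2 h array. It cannot show whether the rise holds once spike-in signal is accounted for. Of all genes 20.8% and 6.93% were called in that fit, in either direction. The 3' minus 5' difference of ACTB, a sign of RNA quality, was 1.11, 1.17, 0.88 and 1.39 with quercetin at 2, 4, 12 and 24 h, and 0.88, 1.12, 1.40 and 1.36 in controls (log2), so that the control 12 h array was as high as the 24 h pair. That of GAPDH was 0.56, 0.61, 0.48 and 0.42 with quercetin at those times, and 0.47, 0.61, 0.61 and 0.41 in controls. The level of the 18S rRNA probe sets was 12.01, 11.62, 7.29 and 9.16 with quercetin, and 8.57, 11.52, 7.35 and 9.82 in controls, lowest at 12 h in both. Their part in the differences between times was not tested. Of the lists of other cell types, no leukocyte or fibroblast marker was called at 24 h against 2 h and 1 endothelial marker, TEK, was lower (-0.71). The mean level of the 5 leukocyte markers ran from 8.63 to 8.77 on quercetin and from 8.44 to 8.79 on control arrays, that of the 7 fibroblast markers from 7.74 to 7.99 on quercetin and from 7.80 to 7.97 on control arrays, and that of the 6 endothelial markers from 7.39 to 7.66 on quercetin and from 7.38 to 7.66 on control arrays.

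Several genes had more than 1 probe set, and for some the values differed between them. Over the 25 probe sets, 14 had both 24 h arrays above the other 6, among them 13 of the 16 that passed the filter. The 13 include the brightest SPRED1 probe set, which passed only through its 24 h arrays. Over all tested genes, each by its brightest probe set, the share was 29.6%. No share over all probe sets was computed. For DUSP6 the other 2 probe sets differed by 2.02 ± 0.22 and 1.76 ± 0.19 at 24 h against 2 h (log2, SE). Both lie below the 2.48 of the brightest, so the value given for the gene is the largest of its probe sets. For DUSP1 the other 2, 226578_s_at and 201044_x_at, differed by 0.28 ± 0.21 and 0.42 ± 0.20 (log2, SE) and did not pass when every probe set was tested (adjusted p = 0.39 and 0.18), and their 24 h arrays overlapped the earlier ones. The endings _s_at and _x_at mark probe sets that can match more than 1 transcript, and the brightest DUSP1 probe set, 201041_s_at, carries one too, so that with gene-specific probe sets DUSP1 was not tested. With every probe set tested, the brightest DUSP1 probe set was called (1.39, adjusted p = 0.00017), so the probe sets of DUSP1 disagree. SPRY1 likewise had a second probe set, 230212_at, that differed by 0.16 ± 0.19 and did not pass (adjusted p = 0.61).

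The ETV5 probe sets differed in the same direction between times, though not in size. The 4 that passed the filter differed by 0.78, 1.13, 1.30 and 0.70 at 24 h against 2 h on the log2 scale, and all 4 were called with every probe set tested. In the treatments taken apart, 230102_at differed by 0.56 with quercetin and by 2.03 in controls, the widest gap of any member probe set. At 2 h this probe set read 9.66 with quercetin and 8.50 in the control, and at 24 h it read 10.22 with quercetin and 10.53 in the control. The fifth ETV5 probe set was dim and differed by 0.43. SPRED1 and SPRED2 each had 2 further probe sets, all 4 dim, which differed by -0.07 to 0.73, and the other 2 of DUSP4 were dim as well.

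**Figure D2:**
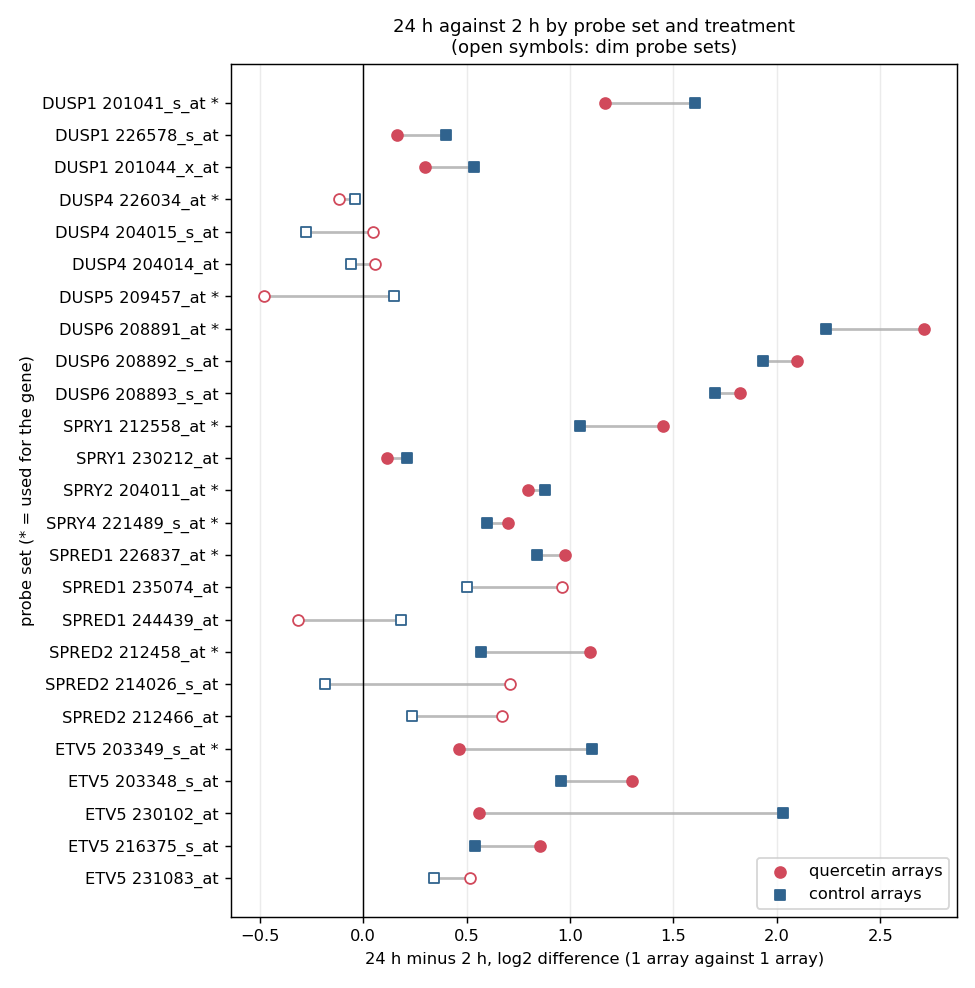
Difference of 24 h against 2 h (x axis, log2, 1 array against 1 array) for each of the 25 probe sets (y axis), red circles for quercetin and blue squares for control, open symbols for dim probe sets and an asterisk for the probe set used for the gene. The 3 DUSP6 probe sets lie between 1.70 and 2.71 in both treatments, while 2 of the 3 for DUSP1 lie between 0.16 and 0.54.

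Quercetin against control was examined next, which asks whether 3 µM quercetin altered the feedback genes in medium without serum. None of the 8 members was called, and none had an unadjusted p under 0.05. Among all 13298 genes 0 were called (0%), and 785 had an unadjusted p under 0.05, or 5.90%. The members divided evenly, with 4 higher and 4 lower, and their median difference was -0.01, against -0.03 over all genes (log2).

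The intervals below rest on a spread moderated over all tested genes, since the fit has 3 residual degrees of freedom. DUSP6 differed by 0.12 ± 0.14 (SE) between quercetin and control, with a 95% interval of -0.17 to 0.40 (adjusted p = 0.91). For DUSP1 the difference was -0.10 ± 0.12 (-0.35 to 0.16), for SPRY1 -0.13 ± 0.14 (-0.42 to 0.17) and for SPRED2 -0.12 ± 0.12 (-0.38 to 0.13). These intervals all stop short of 0.5 on either side. They do not measure a gene's own spread alone, so they do not exclude a steady change of that size over the 4 times. The largest difference was that of SPRED1, -0.25 ± 0.14 (-0.53 to 0.04; adjusted p = 0.85), which is the gene that passed the filter through its 24 h arrays. SPRY2, SPRY4 and ETV5 differed by 0.13, 0.12 and 0.07, with intervals of -0.14 to 0.41, -0.15 to 0.40 and -0.19 to 0.33.

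The difference was not of 1 sign over the times for any tested member but SPRY2. That gene was higher with quercetin by 0.12, 0.30, 0.06 and 0.04 at 2, 4, 12 and 24 h. DUSP6 differed by -0.12, -0.21, 0.44 and 0.36 at those times, and SPRY1 by -0.52, -0.27, 0.40 and -0.12. DUSP1 differed by -0.14, 0.20, 0.14 and -0.58, the last being the largest difference at a single time among the brightest probe sets of the members. The other 2 DUSP1 probe sets differed at 24 h in the other direction, by 0.31 and 0.22. ETV5 differed by 0.29, 0.03, 0.31 and -0.35, and at 24 h its other 3 probe sets that passed the filter differed by -0.31, 0.31 and 0.29. With 1 array against 1 array these values have no replicate check.

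At no single time did a member differ by 1 or more on the log2 scale, which is a 2-fold change. Among all tested genes 0.474%, 0.0677%, 0.346% and 0.384% did so at 2, 4, 12 and 24 h. In time order from 2 to 24 h, 3, 4, 7 and 4 of the 8 members were higher with quercetin, and the member medians were -0.13, -0.03, 0.13 and -0.05, against -0.06, -0.02, 0.05 and -0.10 over all genes. The 12 h pair was thus the one in which nearly all members lay on the same side, by 0.06 to 0.44. SPRED2 was the exception (-0.01). The median over all genes was above 0 in that pair as well. The 12 h arrays differed in the 3' minus 5' difference of ACTB (0.88 with quercetin and 1.40 in the control), whose part was not tested. Among single probe sets, 230102_at of ETV5 at 2 h, at 1.16, was the only one past 1. The 2 h arrays also differed in spike-in signal (12.11 with quercetin and 11.24 in the control) and in the 18S rRNA probe sets (12.01 with quercetin and 8.57 in the control), and the part of these in the 2 h differences was not tested. Without the 2 h pair the mean quercetin differences of SPRY1 and SPRED2 were 0.0036 and 0.0058, and that of ETV5 was -0.0024, each of the opposite sign to the value over 4 times.

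A direct test asked whether quercetin acted differently late (12 and 24 h) and early (2 and 4 h). None of the 8 members was called or had an unadjusted p under 0.05, and 0.368% of all genes were called. DUSP6 and SPRY1 had the largest values, 0.56 ± 0.29 and 0.53 ± 0.29 (log2, SE), each with an adjusted p of 0.9999. Its 95% interval for DUSP6 ran from -0.02 to 1.13. That fit has 2 residual degrees of freedom, and the moderation put all weight on the trend over all tested genes. Its SE, interval and p-value therefore do not measure a gene's own spread.

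**Figure D3:**
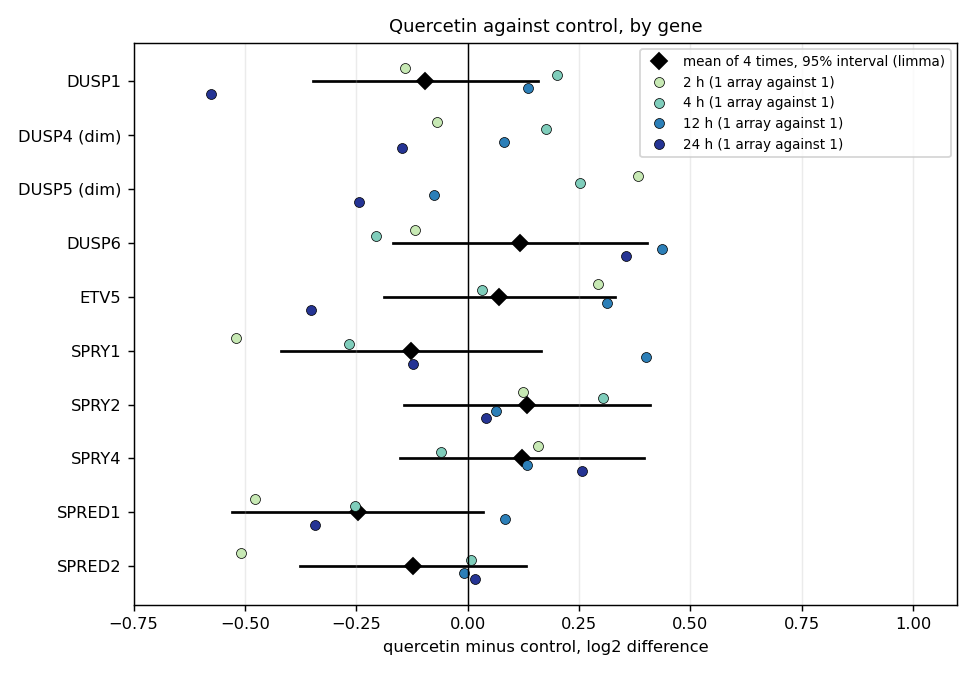
Quercetin minus control on the log2 scale (x axis) for each gene (y axis), with small circles for the 4 times (1 array against 1 array) and a diamond with its 95% interval for the mean of the 4 times from limma. Every interval of the 8 tested genes crosses 0, and the single times scatter on both sides of it for all genes but SPRY2.

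The rest of the ERK pathway was set beside these genes, and each count at 24 h against 2 h stands against the 17.3% of all genes called higher there. Of 12 other dual-specificity phosphatases, all tested, 3 rose at 24 h against 2 h and 0 fell, a share near that of all genes, with a median difference of 0.26 (log2). They were DUSP16, a phosphatase of JNK and p38 (1.17 ± 0.16 SE, adjusted p = 5.1e-05), DUSP14 (0.83 ± 0.18) and DUSP10, also of JNK and p38 (0.64 ± 0.21). DUSP10 had risen by 12 h, when it differed from 2 h by 1.05 (adjusted p = 0.0072), where 1.68% of all genes were called higher.

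Of 16 other brakes on RAS-ERK signalling 12 were tested, and 3 rose at 24 h against 2 h and 0 fell (median 0.10). They were CBLB, a ubiquitin ligase for receptor complexes (1.19 ± 0.22 SE), LRIG1, which promotes loss of EGFR-family receptors (0.95 ± 0.21), and ERRFI1, which binds and inhibits EGFR (0.92 ± 0.14). PEBP1 was lower at 12 h against 2 h by a small margin (-0.34, adjusted p = 0.049), where 1.32% of all genes were called lower.

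Of 20 other genes raised by ERK 19 were tested, and 7 rose at 24 h against 2 h and 0 fell (median 0.36). The largest difference was that of MAFF, a small MAF transcription factor, at 2.54 ± 0.22 (SE; adjusted p = 1.4e-07). IER3 and EGR1, both immediate-early genes, differed by 1.65 ± 0.18 and 1.65 ± 0.13, and the receptor EPHA2 by 1.45 ± 0.20. FOS, PHLDA1 and IER2 differed by 0.91, 0.78 and 0.64. At 12 h against 2 h MAFF was already higher (1.36, adjusted p = 0.0015), while MYC, ETV4 and CCND1 were lower, with differences of -0.94, -0.65 and -0.50 (adjusted p = 0.0017, 0.038 and 0.038). MYC and ETV4, a close relative of ETV5, were higher at 24 h against 12 h by 1.33 and 0.996, so that their course resembled that of ETV5, which did not pass the test at 12 h.

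Receptors included genes that fell by 12 h and rose by 24 h. Of 15 receptor tyrosine kinases and coreceptors 13 were tested, and at 12 h against 2 h 4 fell and 0 rose, where 1.32% of all genes were called lower: INSR (-1.29), ERBB3 (-0.95), IGF1R (-0.80) and EGFR (-0.75), with adjusted p-values of 0.0063, 0.00028, 0.035 and 0.016. At 24 h against 12 h 9 of the 13 rose, where 19% of all genes were called higher. The count of all genes called at 12 h against 2 h, 399, ranged from 49 to 607 over the alternatives. It was 49 with the spike-in class as a block and 52 without the quercetin 2 h array. With that block the count at 24 h against 12 h went from 3158 to 922. These receptor calls between times were not examined under those settings. ERBB3 read 12.24, 11.85, 11.28 and 13.11 with quercetin at 2, 4, 12 and 24 h, and 12.39, 12.03, 11.46 and 13.03 in controls (log2). It and MET, the receptor for hepatocyte growth factor, were the 2 receptors called at 24 h against 2 h (0.75 ± 0.13 and 0.87 ± 0.15). IGF1R was the only gene of these lists called when late and early quercetin differences were compared (0.89 ± 0.23, adjusted p = 0.035), having differed by -0.44, -0.10, 0.83 and 0.40 at 2, 4, 12 and 24 h. With cyclic loess, quantile normalization, eBayes without trend and no block, 0 of all genes were called in that comparison. The IGF1R call was thus lost in each of those settings.

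Of 17 ligands listed, 15 had a probe set, 8 of these were dim and 7 were tested, and VEGFA, which acts on endothelial receptors, was the only one called at 24 h against 2 h (1.17 ± 0.17). Of 13 adaptors and exchange factors 10 were tested and 6 rose, CRKL (0.76), GAB2 (0.71), SOS1 (0.69), IRS1 (0.54), PTPN11 (0.47) and GRB2 (0.42), with a median of 0.50. Of 21 genes of the RAS, RAF, MEK and ERK core 15 were tested and 3 rose, the ERK substrate and transcription factor ELK4 (1.04 ± 0.20), the MEK gene MAP2K1 (0.96 ± 0.18) and the RAF activator SHOC2 (0.91 ± 0.21), with a median of 0.14. No gene of the 7 lists fell at 24 h against 2 h.

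No gene of the 7 lists was called for quercetin against control. The largest mean difference among them was that of SOS1, an exchange factor that loads RAS with GTP, which was higher with quercetin by 0.27, 0.62, 0.40 and 0.30 at 2, 4, 12 and 24 h. Its mean of 0.40 ± 0.11 (SE; 95% interval 0.17 to 0.63) had an adjusted p of 0.84. CBLB and SHOC2 had the largest mean differences in the other direction, -0.35 ± 0.16 and -0.35 ± 0.15, with the 2 h array pair at -0.84 and -0.80.

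**Figure D4:**
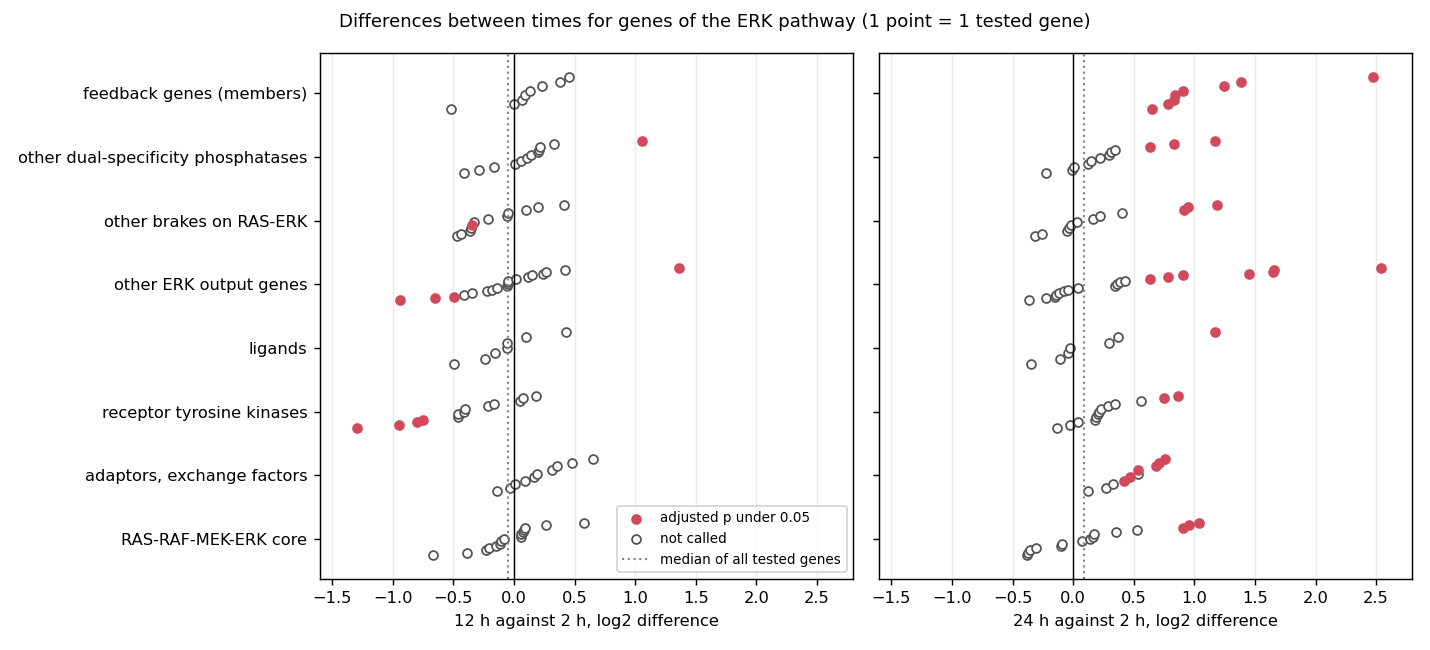
Differences between times on the log2 scale (x axis) for the tested genes of 8 groups (y axis), 12 h against 2 h on the left and 24 h against 2 h on the right, with 1 point per gene, filled where limma's adjusted p was below 0.05. The 8 feedback genes are all filled on the right and none on the left, and receptor tyrosine kinases include 4 filled points below 0 on the left.

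The genes whose pattern was most like that of DUSP6 were sought by Pearson correlation over the 8 arrays, given here as a description of arrays that share their normalization and their 24 h pair. Of 13297 genes the 5 closest were FBXO33 (r = 0.993), NFAT5 (0.991), ABCC1 (0.985), PTTG1 (0.984) and KBTBD2 (0.983). The 3 least like it were LOC105376292 (-0.987), LRTOMT (-0.981) and XNDC1N (-0.977). Of the other members SPRY2 came closest (0.961, rank 84), followed by SPRED2 (0.944), SPRY1 (0.943), SPRY4 (0.932), SPRED1 (0.912), DUSP1 (0.905) and ETV5 (0.831). On the 6 arrays before 24 h the values were 0.87 for SPRY1, 0.79 for SPRED1, 0.53 for SPRY2, 0.53 for SPRY4, 0.51 for SPRED2, 0.04 for DUSP1 and -0.20 for ETV5. The likeness of DUSP1 and ETV5 to DUSP6 thus rested on the 24 h pair. That of SPRY2, SPRY4 and SPRED2 was also lower without it, whereas the 5 closest genes kept values of 0.82 to 0.95. Over the 8 arrays DUSP1 ranked 708 and ETV5 2003, so many other genes were as like DUSP6 as these.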

How the data were processed

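Gene expression was measured on 8 Affymetrix arrays of HepG2 cells, 4 with and 4 without quercetin. The authors deposited 1 table of log2 values per probe set, and the submitters' processing notes name RMA as the tool. Its version and settings: not given in the sources used here. RMA fits each probe set over all arrays and compresses differences near background, and signals before RMA were not used here. The number of arrays limits the precision. All 8 columns were mapped to samples by their labels.

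Probe sets with exactly 1 symbol on the platform annotation (41097 of 54675) were kept, symbols being updated through the Entrez identifier, and each of 19775 genes was represented by the probe set with the highest mean. A gene was tested if its mean exceeded 7.43, the median over probe sets, which left 13298. The model, fitted by lmFit and moderated by eBayes with a trend (limma 3.58.1 under R 4.3.3), had time and treatment as additive terms, and 3 residual degrees of freedom. P-values were adjusted by Benjamini-Hochberg over all 13298 genes at a threshold of 0.05. A second fit with 2 residual degrees of freedom compared the quercetin difference at 12 and 24 h with that at 2 and 4 h. There the moderated spread came from the trend over all genes. Fold changes are 2 to the power of the log2 difference, ± gives the SE, and single times were described by size. The code was checked on simulated data.

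The members and all gene lists were chosen with earlier results of these data known. The text names every member, the genes of each pathway list called in a comparison it describes (otherwise up to 4 with the largest difference), and the 5 genes most and the 3 least correlated with DUSP6. Alternatives were other filters, other choices of probe set, other normalizations, other moderation, array weights, no block, and leaving out each time pair or array. A filter on the arrays before 24 h and a block for array class, divided at the widest gap in spike-in signal, were added after the data were seen.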

Additional observations from a re-analysis of the deposited data

Results flagged for a closer look

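Each treatment gives a group of 4 arrays, 1 per time, and over the 25 probe sets 50 such groups were examined for an array far from the other 3, by the ratio of its gap to the whole range. Chance takes about 1 in 20 groups past Dixon's critical value, and 7 of 50 lay past it. The arrays of a group differ in time, so an array that stands apart is also a time that stands apart. In 5 of the 7 the array was at 24 h and high. In controls these were DUSP1 201041_s_at (12.37, the next array at 10.77; ratio 0.996), DUSP6 208893_s_at (10.002 and 8.30; 0.944), SPRY1 212558_at (10.65 and 9.60; 0.870) and DUSP6 208891_at (11.23 and 9.09; 0.864). With quercetin it was SPRY2 204011_at (9.04 and 8.31; 0.850). The other 2 were dim probe sets with a low quercetin array, DUSP5 209457_at at 24 h (6.60 and 7.05; 0.854) and SPRED2 214026_s_at at 2 h (6.18; 0.845).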

How the results depend on the processing

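Under all 26 alternatives no member was called for quercetin against control, and none for the difference between late and early times. DUSP6, SPRY1 and DUSP1 stayed called at 24 h against 2 h wherever they were tested, with ranges of 2.08 to 2.64, 0.71 to 1.51 and 0.70 to 1.71 (log2), and no member changed sign there. With the filter at the 75th percentile 5 members were tested and 5 called, both at 24 h against 2 h and for any difference between times, where 29.5% and 49.9% of all genes were called. With the filter on the arrays before 24 h 7 were tested and 7 called at 24 h against 2 h, against 21.3% of all genes. Leaving out arrays gave 5 to 8 calls at 24 h against 2 h, 4 to 7 at 24 h against 12 h, 0 to 2 at 12 h against 4 h, and 0 to 8 for any difference between times, the 0 being without the 24 h pair. At 24 h against 12 h 4 were called with the mean of probe sets, of 7 tested, where 16.4% of all genes were called in either direction. With the spike-in class as a block 4 were called there, against 6.93% of all genes. The 12 h against 4 h call was lost (0) with no filter, the mean of probe sets and every probe set tested. It was also lost with cyclic loess, quantile normalization, eBayes without trend, no block and the spike-in block. With median centring 2 members were called, against 10.3% of all genes. One member, ETV5, differed by at least 1 at 2 h where only gene-specific probe sets were used (1). The cause of these changes was not tested. The quercetin difference changed sign with the mean of probe sets for DUSP1 (0.095) and SPRED2 (0.065), and with the spike-in block for SPRY1 (0.0036), SPRED2 (0.0058) and ETV5 (-0.0024). On leaving out arrays it ranged from -0.19 to 0.065 for DUSP1, from -0.30 to 0.0036 for SPRY1, from -0.17 to 0.0058 for SPRED2 and from -0.0092 to 0.21 for ETV5. Scaling moved the median of all genes at 24 h against 2 h between -0.03 (quantile) and 0.15 (median centring), and the count of all genes called there, 2831, ranged from 952 to 3234 where genes were tested (3969 of 22360 probe sets with every probe set tested). Dim probe sets such as those of DUSP4 and DUSP5 are limited by signal over background.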
